A study of Mus musculus with 8 samples.

Results

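The small (40S) subunit of the cytoplasmic ribosome was followed through its protein genes in embryonic mouse brain. The members were 29 gene symbols chosen by their names as one protein family, with no measured value in the rule, out of 24420 symbols in the total RNA table and 5804 in the polysomal table. Of these, 28 had a row in total RNA and 12 also had one in polysomal RNA. Rps3a had no row in either table, while Rps3a1 had one in total RNA.

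The tissue was mouse brain with neural tube at E11.5, a stage rich in dividing neural progenitors and young neurons. Wildtype embryos (WT) were set against embryos lacking both Lin28 genes (Lin28a-/-;b-/-, here dKO), which encode RNA-binding proteins that block let-7 microRNA maturation and bind many messenger RNAs. Each genotype was sampled as total RNA and as polysomal RNA, the RNA carried by several ribosomes at once, with 2 libraries in each of 4 groups. The labels tie no replicate to an embryo or litter of its own, so the p-values reflect only how these samples spread, and that spread may be technical.

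The 40S subunit binds the messenger RNA and reads its codons. Its proteins sit on 18S ribosomal RNA in a head and a body, with the messenger passing through the cleft between them. Transcripts of ribosomal proteins usually begin with a run of pyrimidines at the cap, the terminal oligopyrimidine or TOP motif, through which mTOR signalling controls their loading onto ribosomes. Nearly every ribosomal protein gene also has processed pseudogenes, copies of its spliced messenger elsewhere in the genome, so short reads cannot always be assigned to one place.

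How much of each member's coding sequence occurs in no other annotated gene was measured. Every stretch of 50 bases was looked up in all other genes of the GENCODE M21 annotation (GRCm38). Genes annotated over the same locus were not left out, so a shared window need not lie at a second place in the genome. In the median member 8.77% of these windows occurred in no other gene, while in 13192 coding genes that averaged 10 counts or more the median was 100%. In 9 of 28 members (32.1%) no window was unique, against 1.18% of those coding genes. The 60S proteins of the large subunit were alike in this, with 20 of 47 genes at 0. The following coding sequences show a gene whose unique stretches lie at its ends (Rps20) and one with no base out of reach of a unique window (Rps21). Capitals mark bases covered by at least 1 window of 50 bases found in no other annotated gene.
Rps20, bases 1 to 100: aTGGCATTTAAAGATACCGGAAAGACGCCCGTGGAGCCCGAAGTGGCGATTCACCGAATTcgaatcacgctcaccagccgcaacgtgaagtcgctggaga
Rps20, bases 261 to 360: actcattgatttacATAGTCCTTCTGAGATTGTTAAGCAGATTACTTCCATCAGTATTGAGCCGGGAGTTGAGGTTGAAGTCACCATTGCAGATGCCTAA
Rps21: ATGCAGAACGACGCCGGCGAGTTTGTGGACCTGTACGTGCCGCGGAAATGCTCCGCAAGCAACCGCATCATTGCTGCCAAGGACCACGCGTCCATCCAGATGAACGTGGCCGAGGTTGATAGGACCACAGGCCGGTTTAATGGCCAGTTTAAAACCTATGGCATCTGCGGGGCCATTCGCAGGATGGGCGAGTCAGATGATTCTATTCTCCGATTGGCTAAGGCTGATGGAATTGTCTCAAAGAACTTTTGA

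Rps20, a head protein (chr4:3831334-3835665, minus strand), keeps 145 of 360 coding bases in reach of a unique window, at its 2 ends, and shares 263 windows with the pseudogene Gm4332. Rps21, a body protein that takes part in 18S rRNA maturation (chr2:180257377-180258445, plus strand), has 252 of 252 coding bases covered. Even so, only 112 of its 203 windows (55.2%) are unique. The others occur in 2 pseudogenes, 50 of them in Gm5963. Whole copies were found for members such as Rps6, Rps12, Rps16, Rps27, Rps28 and Fau. That of Rps27 is Rps27rt, an annotated coding gene whose row stood at 0 counts in all 4 total RNA libraries.

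The members' counts went with this sharing. The 9 members without a unique window had mean counts from 6.75 to 234 over the 4 total RNA libraries. The 12 members with more than 0 and up to 20% unique windows ranged from 7 to 5919, and the 7 members above 20% from 1502 to 12282. Spearman's rho between the unique share and the mean count was 0.70 across the 28 members, which come from the same libraries and are not independent replicates. With windows of 100 bases it was 0.67. Rps4x, at 9.96% unique windows and a mean of 4781 counts, and Rpsa, at 1.19% and 1434 counts, stand away from the trend. How reads that map to several places were counted is not given in the sources used here, and its part in these levels was not tested.

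**Figure D1:**
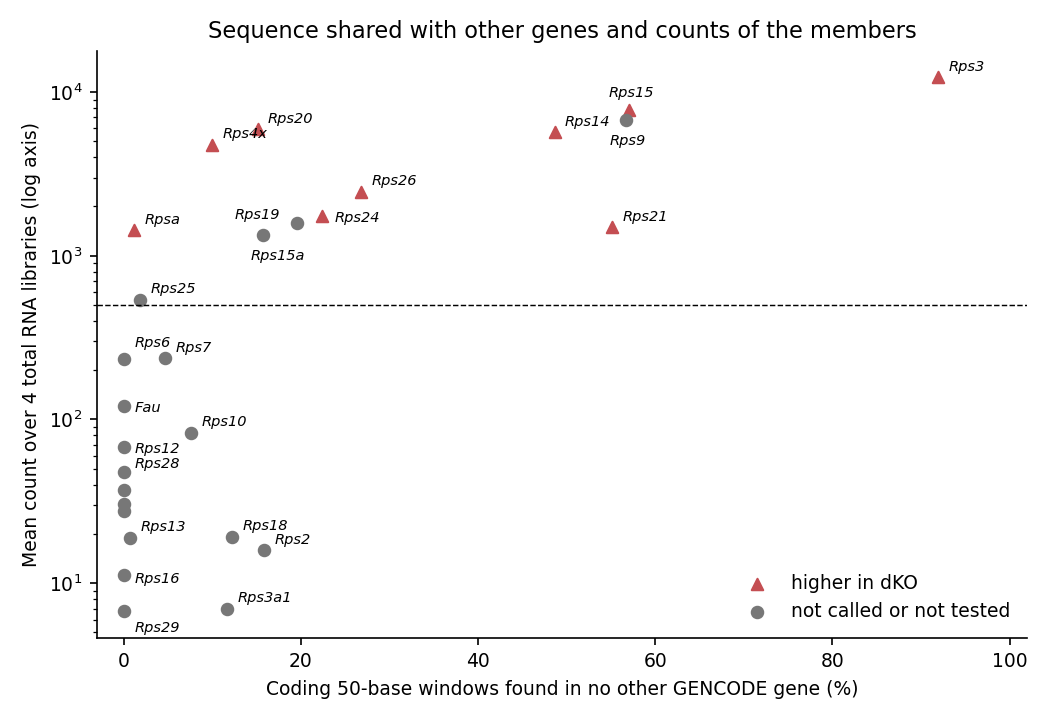
Share of coding windows of 50 bases found in no other annotated gene (x axis, percent) against the mean count over the 4 total RNA libraries (y axis, log scale), 1 point per member, with triangles for members called higher in dKO. All 7 members above 20% lie over the dashed line at 500 counts, and all 9 at 0% lie below it, at 234 or less.

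The start of the transcript, where the TOP motif sits, was looked up in RefSeq start sites of GRCm38.p6, which held 24 of the 29 members. The motif searched was a C at the annotated start followed by 4 bases that are each C or T, on the gene's own strand. It was present in 7 of 24 members (29.2%), in 7 of 34 genes of 60S proteins (20.6%) and in 3.01% of 27025 genes. The longest run of C and T within 20 bases on either side of the start had a median of 7 bases in members. It was 8.5 in the 60S genes and 5 in all genes. Annotated starts can be off by some bases, so a start without the motif says only that these letters are not at that position. The 7 windows that held it are shown from 15 bases before the start to 15 bases from it on, with the pyrimidine run from the start in capitals.
Fau: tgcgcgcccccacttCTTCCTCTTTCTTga
Rps6: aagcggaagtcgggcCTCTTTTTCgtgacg
Rps10: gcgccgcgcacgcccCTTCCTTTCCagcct
Rps15a: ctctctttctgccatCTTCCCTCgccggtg
Rps18: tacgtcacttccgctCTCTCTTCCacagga
Rps21: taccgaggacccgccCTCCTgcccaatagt
Rps27: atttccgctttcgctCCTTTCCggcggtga

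Fau, which encodes a ubiquitin-like protein fused to the 40S protein S30, had the longest run, 13 bases (printed window chr19:6057932-6057961, plus strand). Rps6, the classical substrate of the S6 kinases, carried a run of 9 bases (printed window chr4:86857353-86857382, minus strand). The run of Rps21 was the shortest of the 7, at 5 bases (printed window chr2:180257364-180257393, plus strand). Among these 7 members only Rps21 was called in the total RNA comparison that follows, and 5 of the others, all but Rps15a, had mean counts under 300, so the motif and the calls cannot be set against each other here.

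Total RNA libraries held 15060560 to 15768767 counts each. As a check of the labels, Lin28a stood at 72.8 ± 0.789 CPM in WT and 7.14 ± 0.833 in dKO (CPM is the read count scaled by the TMM-adjusted library size; mean ± SD, n = 2), and Lin28b at 125 ± 4.05 and 51.6 ± 4.98 CPM, with no overlap between genotypes. Replicates of the dKO polysomal group differed most, with a chi-square per degree of freedom of 24.6 between them, against 2.75 to 3.02 in the other groups.

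Per kilobase of coding sequence, Rps15 and Rps3 were the most abundant members in WT total RNA. Rps15, a head protein near the decoding site, stood at 1058 ± 10.04 CPM per kb and Rps3, at the messenger's entry, at 1055 ± 14.6 (SD, n = 2), and these levels did not differ beyond their replicates. Rps20 followed at 934 ± 14.7, then Rps9 at 754 ± 47.4 and Rps14 at 744 ± 23.8, whose replicates overlapped. Rps26, Rps21, Rps4x, Rps24, Rps19 and Rps15a lay between 212 and 429 CPM per kb. Rpsa, the laminin receptor precursor, stood at 92.4 ± 0.243 and Rps25 at 89.99 ± 6.92. The proteins are present in the subunit at one copy each, yet Rps2, which lines the entry channel, was at 1.14 CPM per kb, from 17 and 14 counts in the WT libraries. Rps29 rested on 16 and 3 counts there, which gives no firm level. Only 15.8% of the windows of Rps2 were unique.

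**Figure D2:**
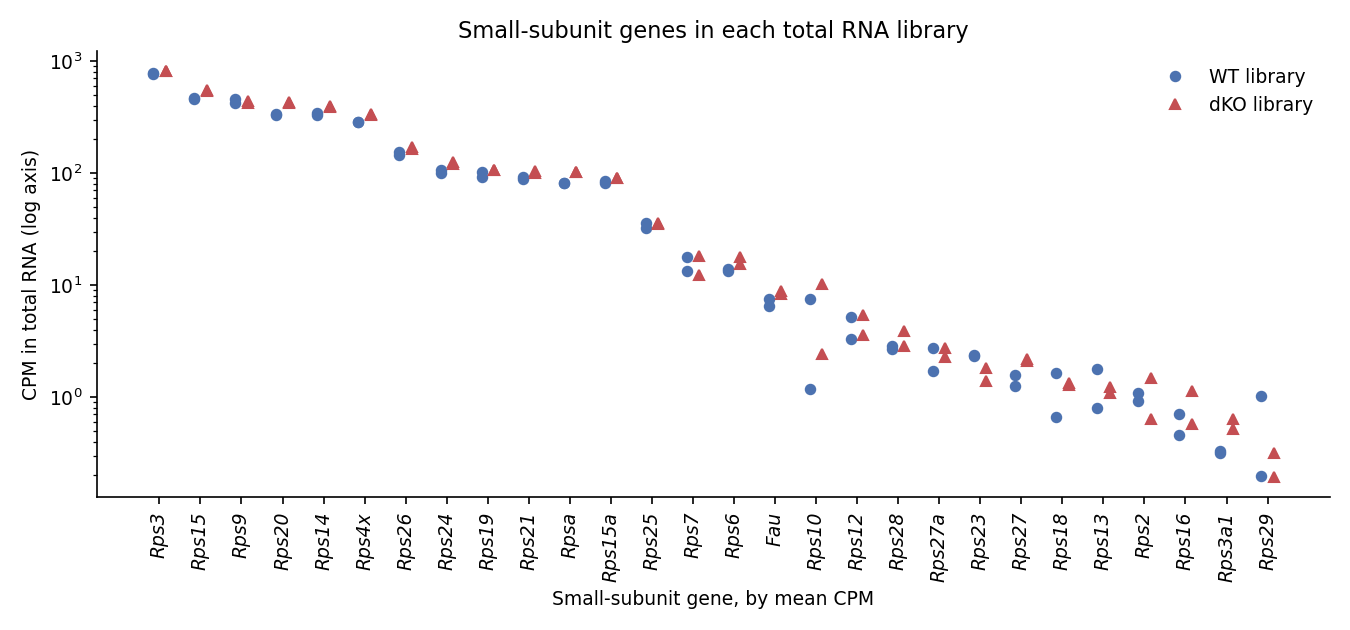
CPM of the 28 members (x axis, ordered by mean) in each total RNA library (y axis, log scale), with circles for WT and triangles for dKO. The first 13 members, down to Rps25, lie above 30 CPM, and the rest lie below 20 CPM with wider gaps between replicates.

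In total RNA, dKO tissue held slightly more small-subunit transcripts than WT tissue. Summed over the 28 members, the level was 3308 and 3363 CPM in WT and 3712 and 3751 CPM in dKO, so the groups did not overlap. Of 26 members with enough counts to be tested, 9 were higher in dKO, none was lower and 17 were not called. Over all 14594 genes tested 30.7% were called, 14.7% higher and 16.0% lower (edgeR quasi-likelihood test, adjusted p under 0.05). The median log2 fold change of the tested members was 0.18, beside 0.003 for all genes, and 22 of 26 members were above 0. Rps3a1 and Rps29 had too few counts to be tested. In such bulk samples, a change in the number of cells of a type and one in RNA per cell cannot be told apart.

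The calls came from the members that were well counted. No member had a mean count between 300 and 500, and 13 lay above this gap. Of these 13, 9 were higher, 12 were above 0 and the median was 0.18, while among all genes that averaged 500 counts or more 22.4% were higher and 24.6% lower. The 13 tested members with fewer counts had the same median, 0.18, with a median standard error of 0.40, and none was called. This split was made after the values were seen.

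Among head proteins, 3 of 11 tested members rose. Rps20 was at 340.1 and 332.6 CPM in the WT libraries and at 432.9 and 419.3 in dKO. Both dKO libraries lay above both WT libraries, and the log2 fold change was 0.34 with an SE of 0.03 (adjusted p = 1.89e-21 by edgeR). How many of all genes separate in this way was not computed, so such separation, here and below, sets no member apart. Rps15, at 460.4 and 466.6 CPM in WT, was at 551.4 and 535.8 in dKO, which gave a log2 fold change of 0.23 ± 0.03 (adjusted p = 1.25e-12, edgeR). Rps3 was at 764.7 and 779.8 CPM in WT and 814 and 808.6 in dKO. Its groups did not overlap either, but the log2 fold change was only 0.07 ± 0.02 (adjusted p = 0.0172, edgeR), which is 1.05-fold.

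The other well-counted head proteins did not pass. Rps19, the protein most often mutated in Diamond-Blackfan anaemia, had 91.52 and 102.8 CPM in WT and 106.3 and 105.7 in dKO, with a log2 fold change of 0.13 ± 0.06 (adjusted p = 0.119, edgeR). Rps25, which viral internal ribosome entry sites depend on, had 32.16 and 35.87 CPM in WT and 36.08 and 34.86 in dKO. The groups overlapped, and its log2 fold change was 0.06 ± 0.10.

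Among body proteins, 6 of 15 tested members rose. Rpsa, at the back of the subunit near the messenger's exit, was at 82.23 and 81.92 CPM in WT and 103.2 and 102.2 in dKO. Its log2 fold change was 0.32 ± 0.07 (adjusted p = 9.5e-06, edgeR). Rps24, another Diamond-Blackfan gene, had 106.1 and 100.2 CPM in WT and 126.4 and 120.8 in dKO, which gave a log2 fold change of 0.26 ± 0.06 (adjusted p = 0.000102, edgeR). Rps4x, the X-linked form of S4, had 283.1 and 286.2 CPM in WT and 335.5 and 327.4 in dKO, which gave a log2 fold change of 0.22 ± 0.04. For both genes every dKO library lay above every WT library.

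Rps14, a platform protein whose loss causes the anaemia of the 5q- syndrome, had 346.9 and 331.5 CPM in WT and 390.8 and 396.9 in dKO (log2 fold change 0.22 ± 0.03, adjusted p = 1.08e-08, edgeR). Rps26, at the messenger's exit, had 154.7 and 143.6 CPM in WT and 164.4 and 172.5 in dKO (0.18 ± 0.05). Rps21 had 93.05 and 89.2 CPM in WT and 100.6 and 104.3 in dKO (0.17 ± 0.06). Both dKO libraries lay above both WT libraries for Rps14, Rps26 and Rps21, a separation whose share over all genes was not computed.

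Rps9, which lines the entry channel with Rps3, showed no such difference. It had 460.8 and 421.6 CPM in WT and 442 and 419.7 in dKO, which gave a log2 fold change of -0.03 ± 0.03. Rps7, whose product binds the p53 regulator MDM2, had 17.77 and 13.23 CPM in WT and 12.28 and 18.11 in dKO, which gave a log2 fold change of -0.03 ± 0.15. The libraries of the genotypes overlapped for both. Rps6 was at 13.88 and 13.3 CPM in WT and 15.46 and 17.65 in dKO (0.28 ± 0.15, adjusted p = 0.151, edgeR).

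**Figure D3:**
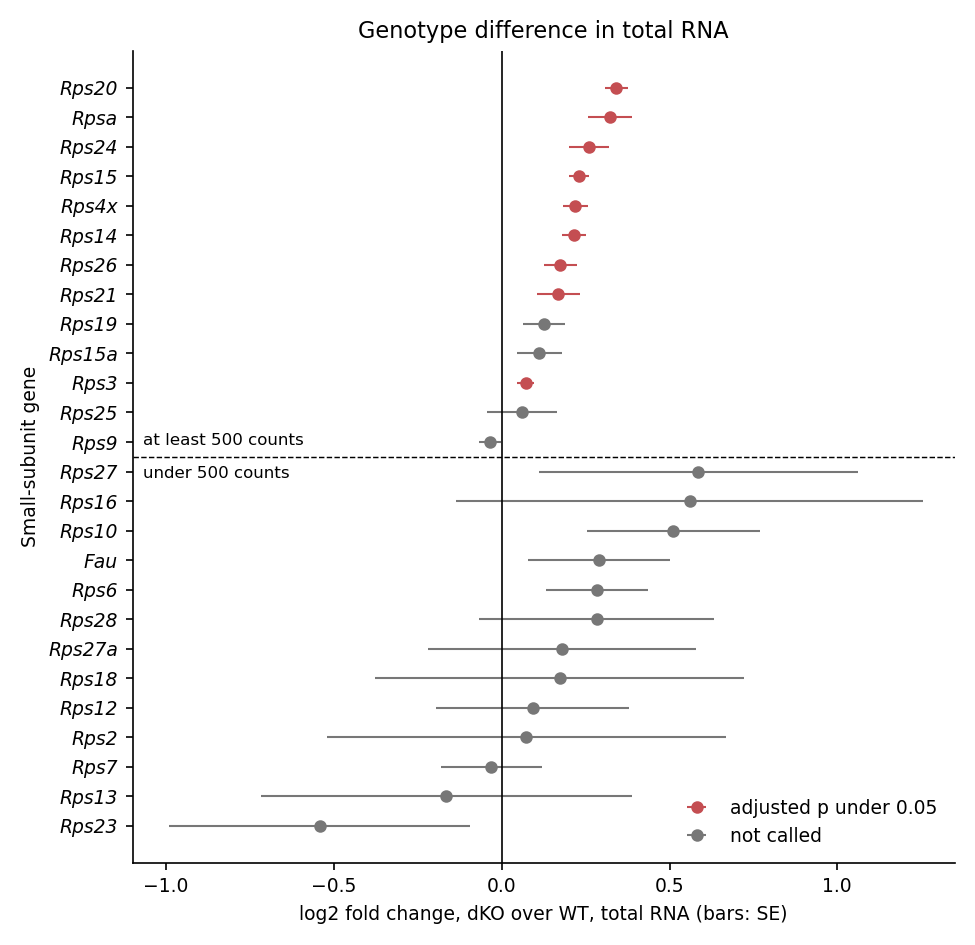
log2 fold change of dKO over WT in total RNA (x axis; bars show the SE) for the 26 tested members, those with a mean of at least 500 counts above the dashed line. The 9 called members, in red, all lie above it, between 0.07 and 0.34, and the members under the line have wider bars.

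Of the 9 calls, those of Rps14, Rps15, Rps20, Rps24, Rps4x and Rpsa held in every alternative in which they were fitted. Rps21 was called in 8 of 14, Rps3 in 9 of 14 and Rps26 in 11 of 14. DESeq2 did not call Rps21 (adjusted p = 0.101) or Rps3 (adjusted p = 0.0633). A fit of all 8 libraries, limited to genes in both tables, called 4 of the 12 members it tested, Rps14, Rps15, Rps20 and Rpsa.

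Genes that work with the 40S subunit differed in direction between lists. Of 42 tested 60S proteins, 11 rose and none fell (median 0.13), for example Rpl39 at 0.45 ± 0.05 on the log2 scale and Rplp0 at 0.35 ± 0.03. Of 57 small-subunit assembly factors, 33 fell and none rose (median -0.34). These include Ltv1, an export and assembly factor of the pre-40S particle, at -0.72 ± 0.12, the processome protein gene Tbl3 at -0.70 ± 0.11 and Rrp12 at -0.65 ± 0.15. Of 22 initiation and recycling factors that bind the 40S subunit, 12 fell and 3 rose (median -0.15), with the eIF3 subunit gene Eif3b at -0.65 ± 0.06.

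Of 17 transcripts listed as TOP that encode no ribosomal protein, 8 rose and 3 fell (median 0.02). The elongation factor gene Eef2 was at 0.31 ± 0.01 and Npm1 at -0.35 ± 0.04. The start motif was not looked up for this list. It shares genes with the list of initiation factors, Eif3f among them, so these lists are not separate. Of 15 S6 kinases and regulators of TOP transcripts, 1 rose and 5 fell (median -0.11), among them Rptor, a subunit of mTOR complex 1, at -0.32 ± 0.09. Of 28 mitochondrial small-subunit proteins, 1 rose and 4 fell (median -0.05). The members' median of 0.18 was thus next to that of the 60S proteins and above those of assembly and initiation factors, as a description of these lists.

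**Figure D4:**
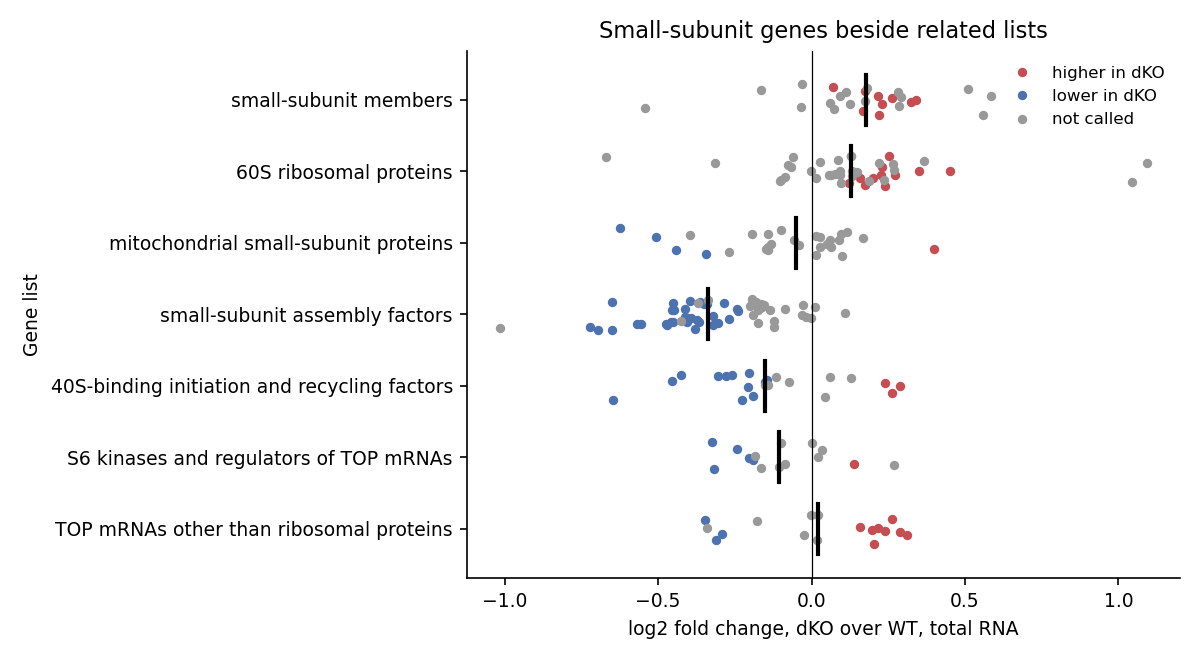
log2 fold change of dKO over WT in total RNA (x axis) for each tested gene of the members and of related lists (y axis), with bars at the list medians and colours for the calls. The median is 0.18 for the members, 0.13 for the 60S proteins and -0.34 for the assembly factors.

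Markers of other cells moved with genotype in the same libraries. Of 9 tested erythroid markers, 8 were lower in dKO, and the 13 with a row summed to 4417 and 4483 CPM in WT and to 2697 and 2701 in dKO. The globin genes Hba-a1, Hba-a2, Hbb-bt and Hbb-bs stood at 0 in every total RNA library, so the sum rests on the embryonic globins. Whether multi-mapped reads were counted is not given, so these zeros do not show that the genes were silent. Of 12 mesenchyme markers 4 fell (531 to 560 CPM in WT, 470 to 472 in dKO), of 10 progenitor markers 4 fell and 1 rose (4330 to 4352 and 3928 to 3959 CPM), and of 12 neuron markers 5 fell and 3 rose (4983 to 4989 and 4738 to 4753 CPM). Of 7 endothelial markers none was called (173 to 174 and 174 to 180 CPM), and of 7 macrophage markers 1 rose and 1 fell (39.9 to 43.9 and 36.2 to 47.7 CPM). The part of these cells in the members' differences was not tested.

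In polysomal RNA, the genotype difference of the members ran in both directions and was larger than in total RNA. The same held over all genes tested, whose median absolute log2 fold change was 0.89 in polysomal and 0.20 in total RNA. The authors' polysomal table lists fewer genes than the total RNA table, and how they were chosen is not given in the sources used here. Of listed genes that averaged 100 counts or more, 2927 had summed counts whose dKO to WT log2 ratio was below -2.04 while for 2514 it was above -1.71, with none between. Of the 5777 genes tested 99.7% were called, 47.2% higher and 52.5% lower, so a call sets no member apart. Sizes and directions of the 12 listed members are given as a description, and large sizes were general among the listed genes. Of these 12, 9 were higher in dKO and 3 lower, with a median log2 fold change of 0.81, beside -0.35 for all listed genes. Directions are relative to the scaling. In raw counts all 12 members were lower in dKO, whose listed genes summed to 3740980 and 5164982 counts against 14874143 and 15414712 in WT. The same 9 members lay above the empty stretch of ratios and the same 3 below it. This restates the directions above, since the log2 ratio of the TMM-adjusted sizes, -1.92, lies within that stretch.

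The 3 members that were lower on this scale were Rps20, Rps26 and Rps6. Rps6 had 21.28 and 19.57 CPM of the listed genes in WT and 5.294 and 3.938 in dKO, from 335, 319, 18 and 20 counts. Rps26 had 233.2 and 212.7 CPM in WT and 88.23 and 79.15 in dKO. Rps20 had 380.5 and 409.5 CPM in WT and 196.2 and 195.3 in dKO. Their log2 fold changes, in this order, were -2.17 ± 0.27, -1.42 ± 0.10 and -1.01 ± 0.07. That of Rps20 shrank to -0.28 (adjusted p = 0.0216, edgeR) after an adjustment for the GC content of the coding sequence, which was added after the data were seen. Rps20 and Rps26 were among the members called higher in total RNA.

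Before that adjustment the largest rises were those of Rps19, Rps14 and Rpsa. Rps19 had 115.8 and 112 CPM in WT and 341.4 and 323.1 in dKO, which gave a log2 fold change of 1.54 ± 0.08. Rps14 had 461.4 and 474.4 CPM in WT and 1127 and 1108 in dKO, which gave a log2 fold change of 1.26 ± 0.05. Rpsa had 97.21 and 99.1 CPM in WT and 255.3 and 208.3 in dKO, which gave a log2 fold change of 1.24 ± 0.12. For each of them both dKO libraries were at more than 2 times the level of either WT library.

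Rps3 had 1079 and 1089 CPM in WT and 2201 and 2061 in dKO, which gave a log2 fold change of 0.97 ± 0.06. Rps9, which did not differ in total RNA, had 594.4 and 592.9 CPM in WT and 1089 and 1011 in dKO, which gave a log2 fold change of 0.82 ± 0.06. Rps7 had 16.58 and 12.82 CPM in WT and 30.88 and 26.19 in dKO, which gave a log2 fold change of 0.95 ± 0.22. Its call was lost without WT polysomal replicate 2 (0.78, adjusted p = 0.103, edgeR), while the libraries of the genotypes did not overlap.

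Rps25 had 41.3 and 40.68 CPM in WT and 68.23 and 73.44 in dKO (log2 fold change 0.79 ± 0.12). Rps21 had 134.8 and 130.9 CPM in WT and 202.9 and 223.1 in dKO (0.68 ± 0.09). Rps15 had 688.1 and 744.4 CPM in WT and 1061 and 1068 in dKO (0.57 ± 0.06). This was the smallest rise, and it turned to -0.24 (adjusted p = 0.0191, edgeR) after the GC adjustment. Rps15 has the highest GC content of the 12, at 58.7%.

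The GC adjustment moved the median of all listed genes from -0.35 to 0.06. With it, 8 members were higher and 4 lower, while of all 5777 genes tested 1589 were called higher and 1281 lower. The order of sizes among the members changed. Rps7 (1.60) and Rps25 (1.54) became the highest, followed by Rps19 (0.96) and Rps3 (0.91). Smaller than before were the rises of Rps14 (0.65), Rpsa (0.60), Rps21 (0.55) and Rps9 (0.19). Rps26 (-1.90) and Rps6 (-1.64) were the lowest. Coding GC was 48.6% in Rps20, 50.1% in Rps6 and 55.5% in Rps26, and 48.4% to 58.7% in the 9 others. Marker sums in this table also differed between genotypes. The 5 listed erythroid markers summed to 8669 to 8797 CPM in WT and 4885 to 4919 in dKO, and all 5 were lower. The 8 listed neuron markers summed to 4789 to 4795 CPM in WT and 3228 to 3350 in dKO (6 lower, 1 higher), and the 8 progenitor markers to 5190 to 5220 and 7352 to 7660 CPM (5 higher, 3 lower). The 7 mesenchyme markers summed to 611 to 614 CPM in WT and 1321 to 1601 in dKO, with 5 higher and 2 lower, Lum at -1.82 and Prrx1 at -1.63 on the log2 scale. The 3 endothelial markers summed to 92.8 to 100.6 and 174 to 216 CPM (2 higher, 1 lower), and the 2 macrophage markers to 21.2 to 22.7 and 27.4 to 28.8 CPM (1 higher, 1 lower). The part of cell content in the members' polysomal differences was not tested.

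**Figure D5:**
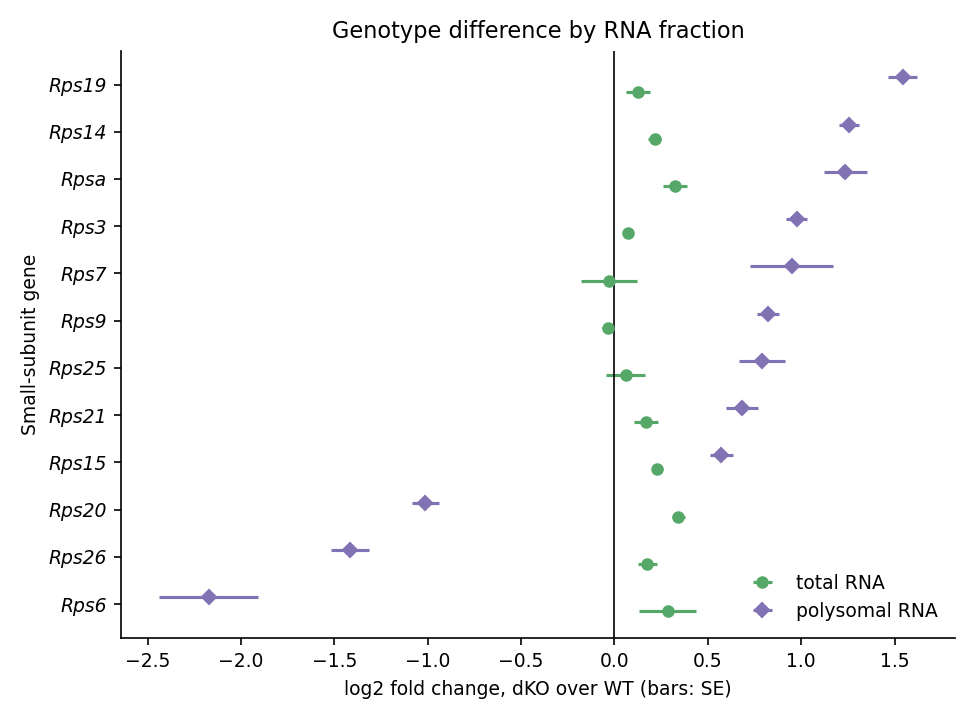
log2 fold change of dKO over WT (x axis; bars show the SE) for the 12 members in both tables, with circles for total RNA and diamonds for polysomal RNA. Total RNA values lie between -0.03 and 0.34, and polysomal values reach from -2.17 for Rps6 to 1.54 for Rps19.

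Polysomal and total RNA were then compared within each genotype, over the genes in both tables and relative to their scaling. In WT the members were close to the other genes or slightly under them. Of 12 members, 3 were lower in polysomal RNA and none was higher, with a median of -0.13. Among 5768 genes 11.9% were called, 8.48% lower and 3.47% higher. Rps19 was at -0.35 ± 0.07 (adjusted p = 0.0124, edgeR), Rps20 at -0.35 ± 0.05 (adjusted p = 0.00165) and Rpsa at -0.32 ± 0.09 (adjusted p = 0.0393) on the log2 scale. This count depended on the libraries fitted. It was 0 without WT polysomal replicate 1, 1 without WT polysomal replicate 2 or WT total replicate 2, and 8 without either dKO polysomal library. Across all of these the members' median stayed between -0.18 and -0.09.

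In dKO the members spread out. Of 12 members, 8 were higher in polysomal than in total RNA, 3 were lower and Rps7 was not called (0.36 ± 0.24), while 90.0% of all genes were called, 43.1% higher and 46.9% lower. Rps19 was highest at 1.11 ± 0.07, followed by Rps14 at 0.96 ± 0.04. Rps6 was lowest at -2.41 ± 0.23, with Rps20 at -1.66 ± 0.06 and Rps26 at -1.56 ± 0.09.

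The test of the genotype difference between fractions, the interaction, called all 12 members, 9 higher and 3 lower. Of all genes in it 89.5% were called, 43.7% higher and 45.8% lower, so the count says little about the members. With the GC adjustment 8 were higher and 4 lower: Rps15 turned from 0.38 to -0.43 (adjusted p = 0.00033, edgeR). The share of all genes called in the interaction with that adjustment was not computed. The call of Rps7 was lost without dKO total replicate 1 (0.76, adjusted p = 0.0643), WT total replicate 1 (0.79, adjusted p = 0.0762) or WT polysomal replicate 2 (0.84, adjusted p = 0.0641), all by edgeR. Rps6 (-2.42 ± 0.28), Rps26 (-1.56 ± 0.11) and Rps20 (-1.32 ± 0.08) had a lower dKO to WT ratio in polysomal than in total RNA. Rps19 (1.45 ± 0.10) and Rps14 (1.08 ± 0.06) had the largest differences upward, and Rps7 (1.01 ± 0.33), Rpsa (0.95 ± 0.12) and Rps3 (0.94 ± 0.06) followed within the SE of Rps7. With the GC adjustment Rps7 (1.59) and Rps25 (1.44) were the highest, Rps19 was at 0.87, Rps14 at 0.47, Rpsa at 0.30, Rps9 at 0.26 and Rps20 at -0.66. Head and body proteins stood on both sides: Rps20 of 5 head members and Rps6 and Rps26 of 7 body members were the lower ones. These calls are conditional on the choice of genes in the polysomal table.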

How the data were processed

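For total and for polysomal RNA the authors deposited a table of raw counts by gene symbol. The submitters' processing notes name FastQC, TopHat and HTSeq, and as builds mm9, mm10 and GRCm38, without versions or roles. RNA was isolated with Trizol and libraries were strand-specific, per the labels' protocols. Not given in the sources used here are the annotation, the strand setting and whether multi-mapped reads were counted. Each table column matched 1 sample, and the labels' 4 groups were followed although the series text speaks of 3.

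Counts were tested with edgeR 4.0.16 (TMM scaling, filterByExpr, quasi-likelihood F test) in R 4.3.3, over all genes, with Benjamini-Hochberg adjustment at 0.05. Genotype comparisons used the 4 libraries of a fraction, and the others all 8 with 4 group means. SE is the absolute log2 fold change over the square root of F. Polysomal CPM rest on the sums of listed genes, which are not library depth. Coding sequences, coordinates and shared windows are from GENCODE M21, and start sites from RefSeq. Alternatives were DESeq2 1.42.0, limma-voom (limma 3.58.1), upper-quartile and RLE scaling, other filters, a replicate block, libraries left out and named pseudogene rows added to their member. A GC adjustment (loess, span 0.5) and a scaling to the empty stretch of polysomal ratios were added later. The scripts were tested on simulated data. Members and lists were chosen with earlier results of these data known. By rule, library values are given for the 8 called members with the largest total RNA change, the 4 with the smallest, and those in the polysomal table. Up to 3 called genes are named from each other list. Some items are not reported here.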

Additional observations from a re-analysis of the deposited data

Results flagged for a closer look

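For all 12 members listed in both tables, the genotype difference itself differed between polysomal and total RNA (edgeR interaction test over all 8 libraries). The polysomal log2 fold change exceeded that in total RNA by 1.45 for Rps19, 1.08 for Rps14, 1.01 for Rps7, 0.95 for Rpsa, 0.94 for Rps3, 0.89 for Rps9, 0.77 for Rps25, 0.55 for Rps21 and 0.38 for Rps15. It was lower, with differences of -2.42 for Rps6, -1.56 for Rps26 and -1.32 for Rps20. Of all genes in this test 89.5% were called, so the count of 12 sets the members apart in no way. The calls are also conditional on the choice of genes in the polysomal table, where 99.7% of those tested were called for genotype. With the GC adjustment the members' median was 0.34 instead of 0.83. Rpsa was then at 0.30 and Rps9 at 0.26, while Rps7 was at 1.59 and Rps25 at 1.44. Rps15 turned to -0.43 (adjusted p = 0.00033, edgeR) with the GC adjustment, and Rps7 lost its call with any of 3 libraries left out (0.76 to 0.84, adjusted p = 0.0641 to 0.0762, edgeR).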

How the results depend on the processing

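The 13 tested members under 300 counts had a median standard error of 0.40 in total RNA, against 0.21 for all genes under 500 counts. The 2 sets were not matched for counts. These members averaged 11.25 to 238 counts, and the cause of their larger error was not tested. Differences of the size seen in the well-counted members were not detectable at that error. In total RNA the count of members higher was 4 in the fit of all 8 libraries, which held only the 12 members in both tables. Rps24 and Rps4x were not in that fit. The median log2 fold change was 0.22 with a mean of at least 5 CPM. With 1 library left out, 6 to 8 members were higher, 0 to 1 lower (Rps9 at -0.10 without WT total replicate 2), and the median ran from 0.14 to 0.22. Where an arm kept 1 library, it is assumed to vary like the other groups. Rps10 was called at 2.39 without WT total replicate 1 and at 1.20 without dKO total replicate 1.

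In polysomal RNA the median of 0.81 became 1.04 under RLE scaling and DESeq2, 0.84 under upper-quartile scaling and in the fit of all 8 libraries, 0.76 when scaled to the empty stretch, 0.57 with the GC adjustment, and 0.77 to 0.81 with 1 library left out (8 to 9 members higher, 3 lower). RLE scaling moved the median of all listed genes from -0.35 to -0.11. In the WT fraction comparison the median was -0.12 under RLE and upper-quartile scaling and DESeq2, and limma-voom put 6 members lower; with 1 library left out 0 to 8 were lower, at medians of -0.18 to -0.093. In the dKO fraction comparison the median was 0.63 under RLE scaling and DESeq2 and 0.46 to 0.58 with 1 library left out. The interaction median was 0.96 under RLE scaling and DESeq2, 0.85 with a mean of at least 5 CPM, 0.34 with the GC adjustment, and 0.78 to 0.84 with 1 library left out (8 to 9 members higher). Rps15 reversed under the GC adjustment, to -0.24 in polysomal RNA and -0.43 in the interaction. The cause of these shifts was not tested.

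Deviations of same-numbered WT and dKO libraries correlated at -0.04 in total and 0.06 in polysomal RNA. Between total and polysomal RNA they correlated at -0.03 in WT and 0.04 in dKO. No shared deviation was seen, but 2 libraries in each group cannot show whether the samples were paired. With the replicate number as a block, 9 members were higher in total RNA (median 0.21), 9 were higher and 3 lower in polysomal RNA (0.81), 2 were lower in the WT fraction comparison (-0.13, with Rpsa at adjusted p = 0.0518, edgeR), and 8 higher and 3 lower (0.49) and 9 higher and 3 lower (0.83) in the dKO fraction comparison and the interaction.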

Other observations

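Rps10, a head protein with 7.57% unique windows, differed more between replicates than any other tested member. Its counts were 119 and 18 in the WT and 38 and 158 in the dKO total RNA libraries, a ratio of 6.36 between the WT replicates and 4.21 between the dKO replicates in CPM. Of the genes that share its windows, RPS10-NUDT3 holds the most, 407. Its name includes that of Rps10, and whether it lies at the same locus was not looked up. The low unique share of Rps10 therefore need not reflect copies elsewhere in the genome.

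Of rows named as pseudogenes of a member, 3 occurred in total RNA. Rps19-ps3 had 29 to 40 counts per library, Rps15a-ps4 had 9 to 14 and Rps15a-ps6 had 3 to 21. Adding them to Rps19 and Rps15a brought neither member to a call in total RNA. Neither is among the 9 called members, so this step says nothing on those calls. Rps26 shares 127 windows with an annotated transcript of Med21, which had a mean of 747 counts.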
